A study of Mus musculus with 4 samples.

Results

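The mouse genes Fbxw13, Fbxw14, Fbxw15, Fbxw16, Fbxw18, Fbxw19, Fbxw20, Fbxw21, Fbxw22 and Fbxw24 form a gene family cluster on chromosome 9 and were followed in late two-cell embryos cultured with or without an inhibitor of MYC. The rule takes them by symbol and uses no measured value, although earlier results of these data were known when it was written, and they are 10 of the 24411 genes listed in each library. All 10 transcripts were present in all 4 libraries, with Fbxw13 the lowest and Fbxw24 the highest in each, and the most abundant, Fbxw24, held 36.4% to 39.3% of their summed FPKM in every library. All 10 had a higher mean level in the inhibitor group, Fbxw15 by the most, while 51.5% of all tested genes had a fold change in that direction. None of the differences passed the test, and neither did that of any other gene. Their median log2 fold change was 0.64 with all libraries. It was 0.27 without the DMSO library that stood apart from the rest, and 1.28 without the other DMSO library.

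F-box proteins are the substrate-recognising subunits of SCF ubiquitin ligases, in which SKP1 joins the F-box protein to the scaffold CUL1 and to the RING subunit RBX1, and the captured substrate is tagged with ubiquitin. The FBXW class carries WD40 repeats, which in well-studied members such as FBXW7 and the beta-TrCP proteins bind phosphorylated motifs of the substrate. The cluster on chromosome 9 is a family expansion known for expression in oocytes, and its transcripts are among those that the egg hands on to the embryo. FBXW15 has been linked to turnover of the histone acetyltransferase HBO1 and FBXW24 to turnover of the synaptonemal complex protein SYCP3 in female meiosis, and no role is given here for the other members.

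The embryos were of the ICR strain, came from fertilisation in vitro and were grown in KSOM medium. The DMSO control group received the solvent, and the 10074-G5-treated group received 10074-G5, a small molecule that keeps MYC from pairing with MAX, at 6 µM. The labels start the treatment at 3 h post-insemination and the design text at 6 h post-insemination, and collection was at 36 h post-insemination in both groups. Each group had 2 libraries, each from a pool of 10 whole embryos, so p-values measure the spread between these pools, and fewer cells and less RNA per cell cannot be told apart.

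The members lie on the minus strand within chr9:109139447-109702700 of GRCm38, a span of 563 kb. From the low to the high coordinate the order is Fbxw21, Fbxw13, Fbxw20, Fbxw14, Fbxw22, Fbxw16, Fbxw19, Fbxw15, Fbxw24 and Fbxw18. Fbxw24, the member with the highest level, spans chr9:109601116-109626057, and Fbxw15 spans chr9:109552602-109568262 beside it. The least abundant member, Fbxw13, spans chr9:109179227-109195975. Fbxw28 lies inside the span between Fbxw14 and Fbxw22, and Fbxw26 and Fbxw27 lie just above it, so these 3 genes are relatives of the same cluster that the selection leaves out. Fbxw15 and Fbxw16 overlap non-coding genes on the opposite strand in the annotation, and the reads were not stated to be counted by strand.

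Promoter sequence was matched by symbol for 8 of the 10 members in the RefSeq table of GRCm38.p6, and Fbxw13 and Fbxw22 had no entry. Over the 250 bases before the start site, the 28 pairs of members were 84.3% to 96.4% identical at the bases that aligned, with a median of 90.2%. Gaps were left out, and 82% to 99.6% of the bases aligned. The 250 bases before the start are shown, 5′ to 3′, for the 2 most abundant members and for the 2 members with the highest fold changes, Fbxw15 and Fbxw20, to show how alike these promoters are. The member promoters resemble each other throughout, so the marked letters are only the longer stretches that all of them hold. Capitals mark runs of at least 8 bases found in all 8 member promoters, wherever they lie. In the sequences shown, the runs TCTACACAG and CACAGCTG overlap and read as a single capital stretch. Fbxw16 lacks this joined stretch and holds TCTACACAG at another place, beginning 205 bases before its start.
Fbxw24 (chr9:109626060-109626309, minus strand): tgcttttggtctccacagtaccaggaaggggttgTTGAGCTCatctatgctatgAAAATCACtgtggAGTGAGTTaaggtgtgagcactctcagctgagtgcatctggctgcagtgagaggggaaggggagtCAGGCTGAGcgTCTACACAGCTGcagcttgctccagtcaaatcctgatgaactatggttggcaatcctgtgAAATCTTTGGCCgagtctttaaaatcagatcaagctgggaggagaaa
Fbxw14 (chr9:109287677-109287926, minus strand): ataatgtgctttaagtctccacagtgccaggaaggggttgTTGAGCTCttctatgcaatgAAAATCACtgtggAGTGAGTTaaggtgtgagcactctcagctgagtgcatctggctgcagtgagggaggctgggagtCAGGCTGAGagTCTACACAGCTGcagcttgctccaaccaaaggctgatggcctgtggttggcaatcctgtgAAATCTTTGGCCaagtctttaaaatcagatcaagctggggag
Fbxw15 (chr9:109568263-109568512, minus strand): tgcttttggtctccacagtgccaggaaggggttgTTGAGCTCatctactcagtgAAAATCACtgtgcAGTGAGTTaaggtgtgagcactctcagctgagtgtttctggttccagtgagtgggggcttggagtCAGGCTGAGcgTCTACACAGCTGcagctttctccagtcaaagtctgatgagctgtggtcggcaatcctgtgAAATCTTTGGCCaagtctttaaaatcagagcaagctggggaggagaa
Fbxw20 (chr9:109234755-109235004, minus strand): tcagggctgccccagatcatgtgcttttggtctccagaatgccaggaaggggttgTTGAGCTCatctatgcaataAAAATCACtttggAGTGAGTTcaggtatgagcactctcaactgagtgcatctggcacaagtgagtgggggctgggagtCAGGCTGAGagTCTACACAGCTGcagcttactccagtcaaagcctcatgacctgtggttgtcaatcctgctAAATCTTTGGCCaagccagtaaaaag

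Of the 7 capital runs, AAATCTTTGGCC was the rarest among the 27025 mouse promoters of the same length. It was present, on either strand, in 11 of them, which were the 8 members, Fbxw26, Fbxw28 and the olfactory receptor gene Olfr829, and in the members it began 26 to 71 bases before the start. The run CACAGCTG, which holds the E-box letters CAGCTG, was present in 553 promoters. The E-box form best known for MYC and MAX, CACGTG, was found in 0 of the 8 member promoters and in 6.05% of all promoters, counted on both strands. The looser E-box CANNTG, which includes CACGTG and CAGCTG, occurred 2 to 5 times in each of the 8 members and in 66.0% of all promoters. The homeobox core letters TAATTG or TAATTA were found in 0 of the 8 and in 11.5% of all. These are matches of letters only and say nothing about binding.

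The libraries held 18206584 to 20718690 expected counts, and 13549 genes passed the filter on low counts. DMSO control replicate 1 stood apart: 43.4% of the tested genes differed by over 2-fold between it and DMSO control replicate 2, against 21.9% between the 2 treated libraries and 24.2% to 29.2% between DMSO replicate 2 and either treated library. Between DMSO replicate 1 and treated replicates 1 and 2 the share was 59.4% and 56%. The summed FPKM of 17 two-cell marker genes, which label this stage, was 1389 and 4521 in the DMSO libraries and 5552 and 6023 in the treated libraries, in replicate order, and none was at 0. This sum was lowest in DMSO replicate 1 as well, and its part in the Fbxw values was not tested. Cumulus and granulosa markers summed to between 6.79 and 22.2, with Amh, Inha, Ptx3 and Foxl2 at 0 in every library. Sperm markers summed to between 2.7 and 16.1, with Prm1, Prm3, Tnp2 and Smcp at 0 in every library. Blood markers summed to between 174 and 324, almost all from Hba-a2, with Alas2 and the 4 listed beta-globin genes at 0 in every library. With 2 DMSO libraries, the data cannot tell which of them is typical. The results on the Fbxw genes are therefore given with all libraries and without either DMSO library.

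Fbxw24 was the most abundant member, at an FPKM of 295 and 750.05 in DMSO replicates 1 and 2 and 853 and 839.8 in treated replicates 1 and 2. Its DMSO mean was 523 ± 322 and its treated mean 846 ± 9.08 (SD, n = 2 each), and 187 of the 24411 genes had a higher mean FPKM. Fbxw14 followed at 185, 512, 565 and 608 in the same library order, with 303 genes above it. These 2 genes thus stood above the other members in all 4 libraries, and Fbxw24 exceeded Fbxw14 by 1.38- to 1.60-fold in each.

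A middle tier held Fbxw19, Fbxw15, Fbxw16 and Fbxw18, with DMSO means of 98.4 ± 53.1, 93.2 ± 44.0, 83.3 ± 32.0 and 74.6 ± 47.7 and treated means of 181 ± 17.0, 201 ± 8.36, 136 ± 11.3 and 121 ± 11.9 FPKM (SD, n = 2). Fbxw14 was 3.03- to 3.76-fold above Fbxw19, the first of this tier by its DMSO mean. Within the tier, Fbxw19 exceeded Fbxw15 in only 1 library and Fbxw16 exceeded Fbxw18 in 2, so these neighbours had no fixed order, whereas Fbxw15 exceeded Fbxw16 in 4 of 4 libraries by 1.02- to 1.61-fold. A lower tier of Fbxw22, Fbxw21 and Fbxw20 ran from 18.8 for Fbxw20 in DMSO replicate 1 to 72.4 for the same gene in treated replicate 2. Fbxw18 was above Fbxw22 in every library, by 1.62- to 2.12-fold, while Fbxw22, Fbxw21 and Fbxw20 had no fixed order.

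Fbxw13 was the least abundant member, at FPKM values of 4.94 and 10.5 in the DMSO and 13.9 and 12.3 in the treated libraries. It stood 3.80- to 5.88-fold below Fbxw20 and rested on 114 to 348 counts, whereas Fbxw24 rested on 6839 to 21482. The ratio of Fbxw24 to Fbxw13 was 59.7 and 71.2 in the DMSO and 61.5 and 68.2 in the treated libraries, a span of about the same width in all 4. Levels and ratios between genes are given in FPKM throughout, since it is scaled to transcript length.

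**Figure D1:**
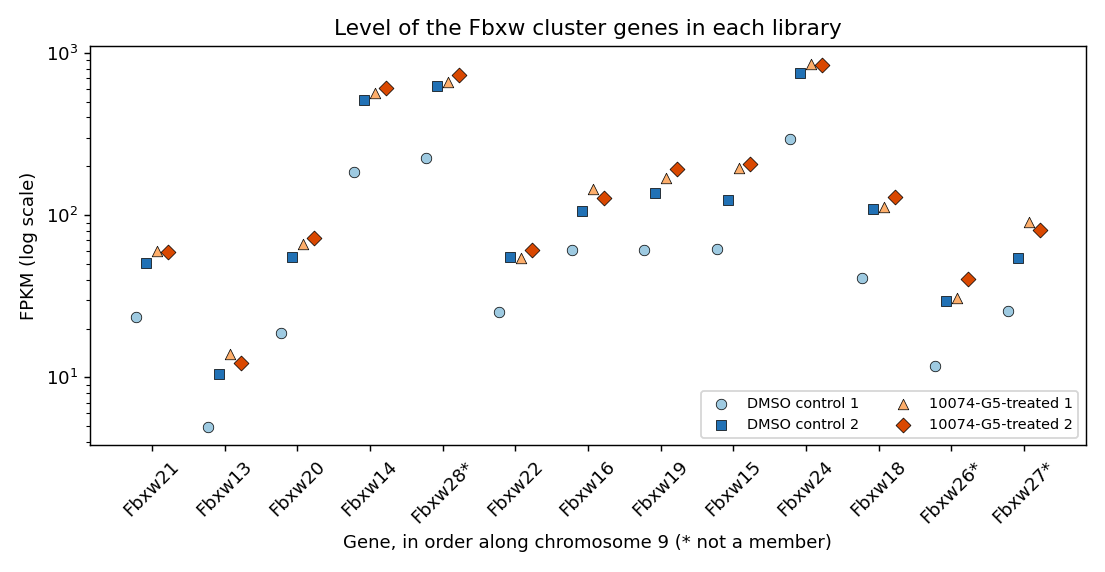
FPKM (log axis) of the 10 members and, with asterisks, the 3 other Fbxw genes of the cluster, in their order along the chromosome, with a point for each of the 4 libraries. Fbxw24 and Fbxw14 stand above the other members, Fbxw13 stands below, and DMSO replicate 1 gives the lowest point for every gene.

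Summed over the 10 members, the FPKM was 777 and 1907 in the DMSO libraries and 2233 and 2310 in the treated libraries. The groups did not overlap, with means of 1342 ± 799 and 2271 ± 54.1 (SD, n = 2 each), a ratio of 1.69, while the DMSO libraries themselves differed by 2.46-fold and the treated mean was 1.19-fold the value of DMSO replicate 2. Of all counts in a library, the members took 0.0951% and 0.233% in the DMSO group and 0.274% and 0.283% in the treated group. A 2 against 2 comparison cannot go below 0.333 in a two-sided exact permutation test, so no p is given for these sums.

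The make-up of that sum is given as the share of each member. Fbxw24 provided 38.0% and 39.3% of it in the DMSO and 38.2% and 36.4% in the treated libraries, and Fbxw14 provided 23.8%, 26.8%, 25.3% and 26.3%. The shares of 7 of the 10 members overlapped between the groups, 2 were higher in both treated libraries and 1 was lower. Among all tested genes, FPKM relative to the same sum did not overlap with treated higher for 12.4% and with treated lower for 43.9%. The sum itself was 1.69-fold higher in the treated group, and only the members' shares must add up to the whole. These percentages are thus not a like-for-like background for the shares. Fbxw15 was 7.99% and 6.51% of the sum in the DMSO libraries and 8.72% and 8.95% in the treated ones, which did not overlap. Fbxw20 was likewise higher, at 2.41% and 2.88% against 2.97% and 3.14%. Fbxw22 was lower, at 3.26% and 2.88% against 2.44% and 2.65%. With 2 libraries a group these 3 are a description only, with no test, and do not set the genes apart.

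**Figure D2:**
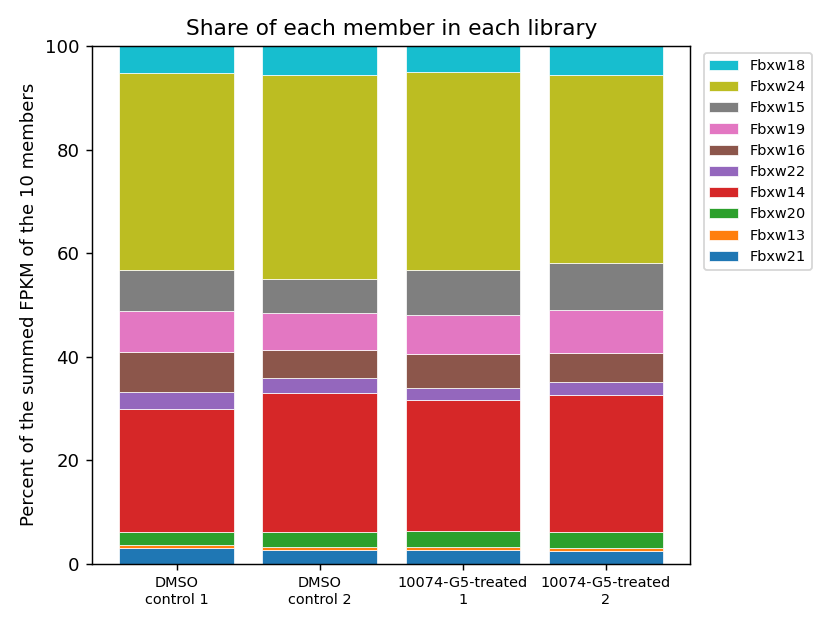
Stacked bars of the share of the summed FPKM of the 10 members (percent, vertical axis) taken by each member, with a bar for each library. Fbxw24 takes 36.4% to 39.3% of each bar and Fbxw14 23.8% to 26.8%, and Fbxw15 takes 6.51% to 8.95%.

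The comparison of the 10074-G5-treated with the DMSO embryos asked whether blocking MYC through the first cleavage alters these transcripts. Counts scaled to library size with TMM factors (CPM) of 9 of the 10 members did not overlap between the groups, treated higher, against a background of 28.9% of all tested genes. The exception was Fbxw22, at 44.9 and 81.7 CPM in the DMSO and 81.1 and 89.3 CPM in the treated libraries. All 10 members passed the filter and had a log2 fold change above 0, against 51.5% of tested genes, with a median of 0.64 against 0.04 over all tested genes.

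None of the 10 was called by edgeR's quasi-likelihood test at an absolute log2 fold change above 1 and a Benjamini-Hochberg adjusted p under 0.05, and neither was any other gene (0% in either direction). At an unadjusted p under 0.05, edgeR gave 1 member, Fbxw15, against 4.72% of all tested genes in the higher direction, and 0 members against 10.1% in the lower direction. DESeq2 on the same genes called 0 of the 10 members higher, against 0.716% of all, and 0 lower, against 3.54%. It left the adjusted p of Fbxw13 undefined, so it could not call that member. The fold changes ran from 0.43 for Fbxw22 to 1.01 for Fbxw15 on the log2 scale, with standard errors from 0.37 to 0.53, and edgeR's adjusted p ran from 0.333 to 0.621.

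Fbxw15 had the highest fold change of the members. Its CPM was 86.5 and 146 in the DMSO libraries and 229 and 237 in the treated libraries, so both treated values lay above both DMSO values. The group means were 116 ± 41.7 and 233 ± 6.23 (SD, n = 2 each), a log2 fold change of 1.01 ± 0.39 (SE) with an adjusted p of 0.333 in edgeR, 0.0972 in DESeq2, and 0.0021 to 0.992 over the edgeR, DESeq2 and limma alternatives. Against DMSO replicate 2 alone the treated mean was 1.60-fold higher, the highest such ratio among the members.

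The next members by fold change were Fbxw20 and Fbxw19. Fbxw20 had 26.5 and 65.2 CPM in the DMSO and 78.8 and 84.3 CPM in the treated libraries, with a log2 fold change of 0.83 ± 0.49 (SE) and an adjusted p of 0.423 in edgeR. Fbxw19 had 82.5 and 155 CPM in the DMSO and 193 and 215 CPM in the treated libraries, with 0.78 ± 0.41 (SE) and an adjusted p of 0.390. In both genes the treated pair lay close together above a wide DMSO pair. The most abundant member, Fbxw24, had 410 and 875 CPM against 996 and 961 CPM, and its log2 fold change was 0.61 ± 0.45 (SE), with an adjusted p of 0.516 in edgeR and 0.327 in DESeq2.

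DMSO replicate 1 gave the lowest CPM of the 4 libraries for 10 of 10 members, against 40.0% of all tested genes, and DMSO replicate 2 the next lowest for 9, against 23.5%. Between the DMSO libraries the members differed by 1.47-fold, for Fbxw16, to 2.46-fold, for Fbxw20, always with replicate 2 higher, and replicate 2 was over 2-fold higher for 4 of the 10 members and for 26.2% of tested genes. Between the treated libraries the ratio of replicate 2 to replicate 1 was 0.869 to 1.12. The ratio between the DMSO libraries exceeded the ratio of the group means for 8 of the 10 members, and Fbxw15 and Fbxw16 were the exceptions.

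Without DMSO replicate 1, the log2 fold changes shrank to between 0.08 for Fbxw22 and 0.69 for Fbxw15, with a median of 0.27, and edgeR called 0 of the 10, against 0.00679% of tested genes called higher. Fbxw24 was then at 0.18 and Fbxw14 at 0.20. Without DMSO replicate 2, they grew to between 0.90 and 1.62, with a median of 1.28, and edgeR called 7 members higher (Fbxw14, Fbxw15, Fbxw18, Fbxw19, Fbxw20, Fbxw21 and Fbxw24), beside 14.6% of tested genes. In both of these fits the lone DMSO library is assumed to vary like the treated pair. All 150 member values, from 10 genes in 15 alternative settings, were above 0. These settings refit the same libraries, in which 9 of the 10 members did not overlap between the groups. The shared sign was thus nearly fixed in advance and is no further support.

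**Figure D3:**
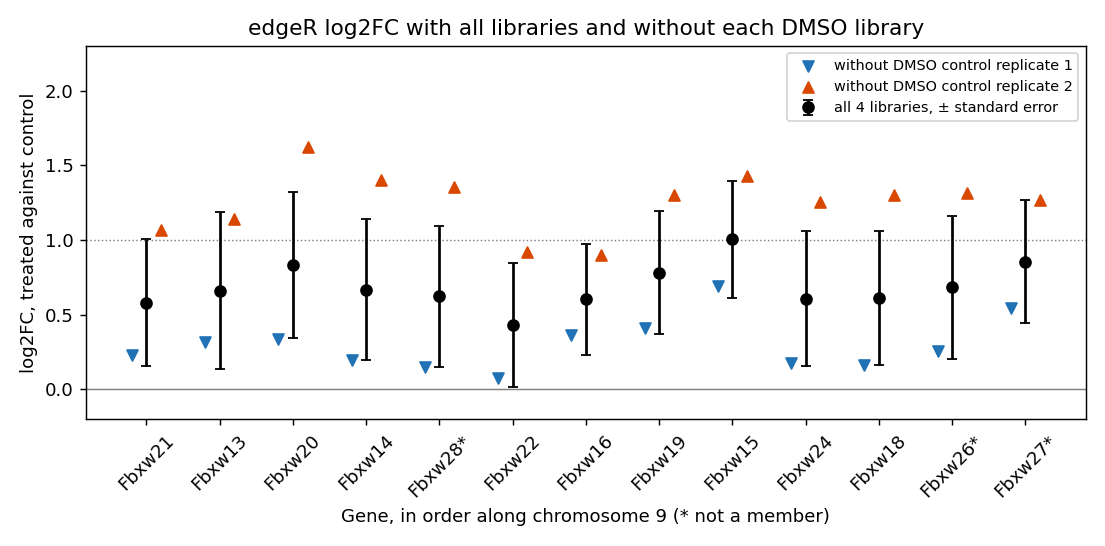
log2 fold change (treated over DMSO, vertical axis) of each member and, with asterisks, the 3 other Fbxw genes of the cluster, in chromosomal order, in edgeR with all 4 libraries, with bars for the standard error, and without either DMSO library. Every point lies above 0, and the members run from 0.08 without DMSO replicate 1 to 1.62 without DMSO replicate 2, and Fbxw15 is the highest with all libraries.

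Fbxw14 is the member whose value depends most on how reads were shared between copies. Its annotated transcript was 99.1% identical to that of Fbxw28 over the aligned part, and 44.8% of its 100-base windows occurred in another gene, all of them in Fbxw28. That transcript is 1786 bases long, against a length of 1497 in the deposited values, so the share over the counted length may differ. Fbxw14 was also the only one of the 10 members with expected counts that were not whole numbers, which RSEM gives where a read is divided between genes. Added together, Fbxw14 and Fbxw28 had 572 and 1335 CPM in the DMSO and 1439 and 1541 CPM in the treated libraries, a ratio of group means of 1.56 and of 1.12 against DMSO replicate 2 alone. The ratio of Fbxw14 to Fbxw28 in FPKM was 0.816 and 0.817 in the DMSO and 0.856 and 0.832 in the treated libraries, so the split hardly varied.

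The remaining members were more distinct. Over the 45 member pairs, transcript identity over the aligned part ran from 81.8% to 93.1%, with a median of 84.5%. Only 1 pair, Fbxw14 and Fbxw22, passed 90%. Shared 100-base windows were at most 3.26% of a transcript for the 9 members other than Fbxw14, and 0 for Fbxw16, Fbxw22 and Fbxw24. For Fbxw15 the share was 2.29%.

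**Figure D4:**
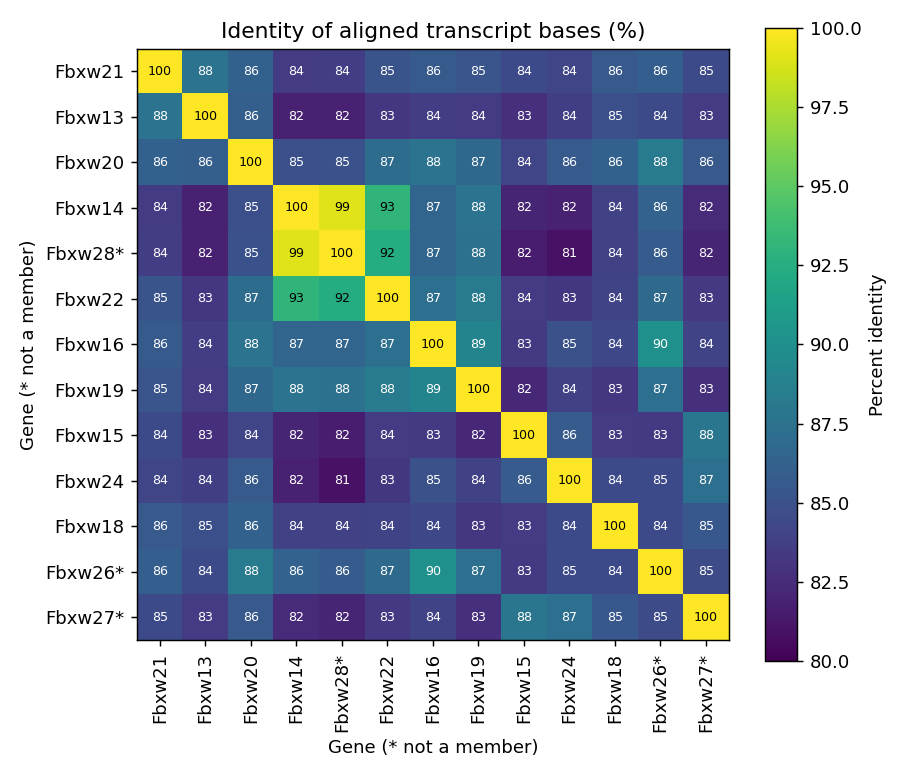
Pairwise identity (percent) of the aligned transcript bases of the cluster's Fbxw genes. Member pairs lie between 81.8% and 93.1%, and the pair Fbxw14 and Fbxw28 stands out at 99.1%.

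The 3 cluster relatives outside the selection had a like pattern. Fbxw28 was at 226, 626, 659.8 and 731 FPKM in DMSO replicates 1 and 2 and treated replicates 1 and 2, between Fbxw14 and Fbxw24 in every library. Fbxw27 was at 25.8, 54.4, 91.2 and 81.4, and Fbxw26 at 11.8, 29.6, 30.7 and 40.2. Their median log2 fold change was 0.68, and 0.26 without DMSO replicate 1, against 0.64 and 0.27 for the members.

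The other Fbxw genes were mixed. Of 13 listed, with Fbxw26, Fbxw27 and Fbxw28 of the cluster included, 12 were tested and edgeR called 0. Fold changes were above 0 for 8, these 3 cluster genes among them, and below 0 for 4. Fbxw4, a broadly expressed relative, was at 22.1 and 117 FPKM in the DMSO and 189.8 and 171 in the treated libraries. Fbxw2 ran the other way, at 18.5 and 15.5 against 11.3 and 14.4. Btrc, which encodes beta-TrCP1, was at 6.76 and 3.25 against 1.17 and 2.33, and its paralogue Fbxw11 at 16.8 and 24.8 against 20.97 and 20.1. Fbxw7, the tumour suppressor that targets MYC itself and cyclin E for degradation, was low in every library, at 1.29 and 2.10 against 1.69 and 2.65. Fbxw9 was at 3.88 and 3.48 against 2.46 and 3.13 FPKM, Fbxw5 stayed at or below 1.68 and Fbxw8 at or below 0.64, and Fbxw10 and Fbxw17 were each listed at 0 in 2 or more libraries.

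Among 50 tested F-box genes of the Fbxo and Fbxl classes with Skp2 and Ccnf, the median log2 fold change was 0.42, with 30 above 0 and 20 below, and edgeR called 0. At an unadjusted edgeR p under 0.05, 1 was higher and 7 were lower, against 4.72% and 10.1% of all tested genes. The smallest p belonged to Fbxo22 (log2 fold change -2.21) and Fbxo31 (-1.97), both lower, each with an adjusted p of 0.333 in edgeR. The SCF partners were 27 genes of the SCF core, its E2 enzymes and regulators, the NEDD8 pathway and the COP9 signalosome that removes NEDD8 from cullins. They had a median of 0.01, with 14 above and 13 below 0. Cops6, a signalosome subunit, was at -1.69, and Ube2d1, an E2 enzyme, was at 1.50, each with an adjusted p of 0.333 in edgeR. DESeq2 gave Cops6 an adjusted p of 0.0245 at a log2 fold change of -1.71, which passes the call, and left the adjusted p of Ube2d1, Fbxo22 and Fbxo31 undefined. The sign of the median over these 27 turned without 1 library, to -0.11 without treated replicate 1 and to -0.03 without DMSO replicate 2.

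Lists of other transcripts of this stage had a like pattern. Of 41 maternal oocyte transcripts, 36 had a fold change above 0, against 51.5% of all tested genes. The groups did not overlap for 31, treated higher, against 28.9% of all. The median was 0.93, and 0.53 without DMSO replicate 1. Centred per gene, the members' log2(CPM + 1) had medians of -0.88 and 0.13 in the DMSO and 0.37 and 0.38 in the treated libraries, and the maternal list had -1.05, 0.01, 0.55 and 0.50. The two-cell markers, most of them transcribed by the embryo itself, had -1.65, 0.31, 0.62 and 0.59, with 15 of 17 fold changes above 0 and a median of 0.94, and 0.31 without DMSO replicate 1. The smallest p in the maternal list belonged to Nobox, the oocyte homeobox factor, at 6.38, 14.5, 40.7 and 39.3 FPKM, and to Oosp1, an oocyte-secreted protein, at 555, 1572, 3691 and 2917 FPKM. Their log2 fold changes were 1.84 and 1.56, each with an adjusted p of 0.333 in edgeR and of 0.0108 and 0.0211 in DESeq2.

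The 18 tested genes within 500 kb of the cluster that are not Fbxw genes had a median log2 fold change of -0.25, with 8 above and 10 below 0, and the groups did not overlap for 2 with treated higher and 4 with treated lower, against 28.9% and 28.3% of all tested genes. Slc25a20, the mitochondrial carnitine carrier, was at -2.28 and Smarcc1, a chromatin remodelling subunit, at -1.17, each with an adjusted p of 0.333 in edgeR. DESeq2 gave adjusted p values of 0.0094 and 0.0806 for them, so that it called Slc25a20 lower, at -2.30. Over the same 18 genes the median stayed below 0 whichever library was left out, from -0.28 to -0.06.

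**Figure D5:**
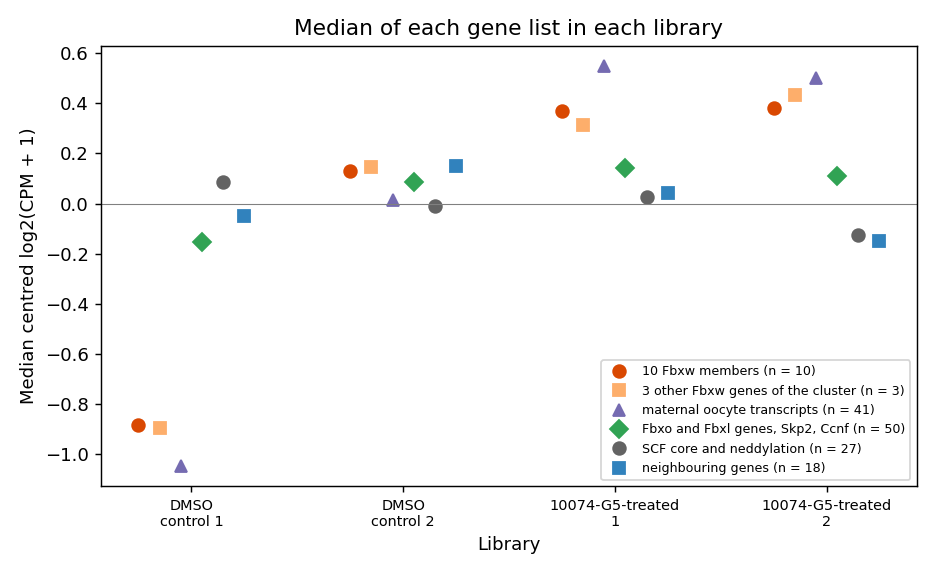
Median centred log2(CPM + 1) (each gene's mean over the 4 libraries set to 0) of the members and of the comparison lists in each library. The members and the maternal oocyte transcripts are lowest in DMSO replicate 1, at -0.88 and -1.05, and the SCF partners and the neighbouring genes lie closer to 0 there.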

How the data were processed

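RNA was sequenced from 2 libraries of DMSO control and 2 of 10074-G5-treated late two-cell embryos, grouped by their labels. The authors made cDNA with a SMART-Seq v4 kit, kept uniquely mapped reads and used mm10, and the submitters' processing notes name STAR 2.7.10 and RSEM 1.3.3. The expected counts deposited by the authors are RSEM estimates, not normalized, and were rounded here. Levels are the FPKM that the authors deposited, which is adjusted for effective length and library. The TPM deposited by the authors served only as an alternative for levels. Near-identical copies and genes on the opposite strand make single values uncertain. No molecular identifiers are named in the sources used here, and the 18206584 to 20718690 counts per library limit the precision.

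Counts were fitted with edgeR 4.0.16 in R 4.3.3 (quasi-likelihood test, robust, TMM, filterByExpr with at least 10 counts), on all 13549 passing genes, with Benjamini-Hochberg adjustment. In simulated data, 200 genes were changed by a log2 fold change of 2. Of these, edgeR called 26.1% and DESeq2 42%. Unchanged genes made up 5.09% of the edgeR calls and 27.0% of the DESeq2 calls. Changes as small as those of the members were not simulated. The simulation gave both groups the same spread, taken from edgeR's own fitted trend, and no library that stood apart. Its rates thus need not hold for these data. Standard errors are the fold change over the root of the F statistic. A call needed an absolute log2 fold change over 1 and an adjusted p under 0.05. Alternatives used DESeq2 1.42.0, limma 3.58.1, other scaling and filters, a replicate block, and each library left out. All 10 members, the other Fbxw genes, the 2 genes of smallest p in each list and the 5 genes of nearest profile are named. The members and lists were chosen with earlier results of these data known. Coordinates are GENCODE M21 (GRCm38), and transcripts were aligned with Biopython 1.88. Promoters are from RefSeq (GRCm38.p6).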

Additional observations from a re-analysis of the deposited data

How the results depend on the processing

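With 2 libraries a group, the number of called genes depended on the tool. edgeR called 0 higher and 0 lower. DESeq2 called 97 and 479 on the same genes and 87 and 437 on all genes with a count, edgeR without a filter called 165 and 479, and edgeR with a replicate block called 12 and 32. Leaving out 1 library gave 1 to 2148 higher and 1 to 2065 lower, the highest without DMSO replicate 2. Of the members, 0 to 7 were called when 1 library was left out, the 7 without DMSO replicate 2, and 0 in every other setting. The deviations of same-numbered libraries from their group means had a correlation of -0.09 over genes. With 1 pair of libraries for each number, this cannot tell whether the number marks a shared batch. The block put the members' median log2 fold change at 0.72.

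The members' median was 0.64, and 0.27 to 1.28 when 1 library was left out. For the other Fbxw genes, with Fbxw26, Fbxw27 and Fbxw28 of the cluster included, it was 0.65. It was 0.34 in limma with a pseudocount of 0.1 and 0.23 with a pseudocount of 1, with or without a filter. With 1 library left out it was 0.14 to 1.29. For the other F-box genes it was 0.42, 0.10 with at least 10 counts in every library, 0.27 in limma with a pseudocount of 1, 0.22 in the same without a filter, and 0.12 to 0.46 with 1 library left out. For the SCF partners it was 0.01, 0.14 with library totals alone, 0.14 in the 3 limma fits, and -0.11 to 0.15 with 1 library left out. For the maternal transcripts it was 0.93, and 0.53 to 1.68 with 1 library left out. For the neighbouring genes it was -0.25, 0.0042 in limma without a filter, and -0.17 to 0.22 with 1 library left out over the 19 to 21 genes that then passed the filter, but -0.28 to -0.06 over the 18 genes tested with all libraries. The change of sign when a library was left out thus came with the genes added. For the other changes, the cause was not tested. All other settings kept each median's direction. TPM and counts per effective length rescale all genes of a library by the same factor. They could not change the order of levels within a library, so they are no test of it.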

Other observations

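The 5 genes whose centred log2(CPM + 1) lay nearest to the median profile of the members, among the 5146 genes at a mean FPKM of 10 or more, were Arfgef1, Armcx5, Rap1b, Ube2g1 and Ergic2, over 4 libraries. Their root mean square distances were 0.0239, 0.0279, 0.0297, 0.0300 and 0.0330. None of the 5 is in the list of maternal oocyte transcripts, and Ube2g1, an E2 ubiquitin-conjugating enzyme, is in that of the SCF partners. Arfgef1 encodes an exchange factor for ARF GTPases at the Golgi, Rap1b a small GTPase and Ergic2 a protein of the compartment between the endoplasmic reticulum and the Golgi. Among the same 5146 genes Fbxw28 ranked 67, Fbxw26 ranked 164 and Fbxw27 ranked 307 in nearness to the members.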
